A study of Homo sapiens with 8 samples.

Results

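The 9 genes LRRTM1, LRRTM2, LRRTM3, LRRTM4, NRXN2, NRXN3, NLGN1, CBLN1 and CBLN2, which code for adhesion proteins and secreted proteins that organize synapses, were taken by name from the RNA-seq data. They are 9 of the 58217 genes with a quantified transcript, and all 9 were among the 18201 genes tested. The RNA came from oligodendrocyte progenitor cells (OPCs), to which no SOX10 had been added, and the OPCs were differentiated from the embryonic stem cell line H9, a long-established human line. Cells in OPC medium were kept for 2 days on Matrigel, the basement membrane extract that served as control (replicates 2 and 3), on VN, the matrix protein vitronectin (3 replicates), or on VNP2, a synthetic peptide derived from VN (3 replicates). All 8 libraries thus share 1 cell line and the OPC differentiation that preceded the change of substrate, and the comparisons ask how the substrate bears on the transcriptome of OPCs. Nothing in the labels says that the replicates were separate differentiations, so the p-values measure the spread between these samples, which may be technical.

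Synaptic organizers join the membranes of 2 cells across the synaptic cleft. Neurexins lie on the presynaptic side, and each neurexin gene makes long alpha and short beta proteins from separate promoters. On the postsynaptic side they bind neuroligins such as NLGN1 and the leucine-rich repeat transmembrane proteins (LRRTMs), and cerebellins are secreted proteins that bridge neurexins to glutamate receptors of the delta class. The genes are known chiefly from neurons, but OPCs receive synapses from axons and also express members of these families.

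The libraries held 37997896 to 39429453 estimated counts each. Levels are given as normalized counts, which are estimated counts scaled for library size and transcript length, and a gene is said to be called where its adjusted p from the fit over all genes was under 0.05. VN replicate 1 stood apart from the other VN libraries, with a median chi-square per gene of 2.04 to 2.09 against them, where those 2 gave 1.24 against each other. Without it, 7 of the 9 genes were still called across the substrates, as with it. Of the OPC markers, OLIG2, a transcription factor of the lineage, had mean normalized counts of 1704 on Matrigel, 2106 with VN and 1999.9 with VNP2, whereas SOX10, a defining factor of committed oligodendrocyte lineage cells, and GPR17, a receptor of committed progenitors, summed to 20 and 12 estimated counts over the 8 libraries. Of the 12 OPC markers, 10 were high enough to test, among them OLIG1, NKX2-2, PDGFRA, CSPG4 and PTPRZ1, and SOX10 and GPR17 were the 2 that were not. Neuron markers were also present, as given beside the results below.

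The promoters of 5 of the genes are shown because LRRTM1, LRRTM2, LRRTM3 and CBLN2 were called higher on both VN and VNP2. NRXN3, shown at its internal start, was highest on VN and lowest on VNP2. Each window runs from 250 bases before to 50 bases after a RefSeq start site (GRCh38.p14), 5′ to 3′ on the strand of the gene. The windows are chr2:80304703-80305002 on the minus strand for LRRTM1, chr5:138875286-138875585 on the minus strand for LRRTM2, chr10:66925786-66926085 on the plus strand for LRRTM3, chr18:72544293-72544592 on the minus strand for CBLN2 and chr14:79279130-79279429 on the plus strand for the internal NRXN3 start. Capitals mark matches to 6 motifs, searched on both strands: the TATA box (spelled TATAAA), the GC box (spelled GGGCGG), the cyclic AMP response element (spelled TGACGTCA), an E-box (spelled CAGCTG), a core of the SOX factors (spelled ACAAAG) and the core of the TEAD factors (spelled GGAATG).
LRRTM1: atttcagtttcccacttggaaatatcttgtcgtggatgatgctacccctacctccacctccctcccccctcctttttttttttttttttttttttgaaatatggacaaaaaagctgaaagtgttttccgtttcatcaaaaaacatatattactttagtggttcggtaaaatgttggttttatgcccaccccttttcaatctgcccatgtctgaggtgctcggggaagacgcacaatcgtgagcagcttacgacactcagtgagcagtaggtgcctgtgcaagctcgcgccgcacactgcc
LRRTM2: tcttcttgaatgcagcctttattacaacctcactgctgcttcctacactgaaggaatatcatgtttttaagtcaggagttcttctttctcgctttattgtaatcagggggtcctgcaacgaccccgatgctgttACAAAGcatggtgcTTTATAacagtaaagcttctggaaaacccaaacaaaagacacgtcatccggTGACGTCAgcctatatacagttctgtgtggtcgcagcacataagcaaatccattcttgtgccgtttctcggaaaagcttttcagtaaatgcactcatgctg
LRRTM3: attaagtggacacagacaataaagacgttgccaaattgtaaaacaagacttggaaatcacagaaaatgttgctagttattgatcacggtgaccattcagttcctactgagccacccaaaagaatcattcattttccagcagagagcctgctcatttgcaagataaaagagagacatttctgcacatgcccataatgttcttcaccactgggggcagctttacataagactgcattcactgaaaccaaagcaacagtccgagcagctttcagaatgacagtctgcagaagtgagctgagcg
CBLN2: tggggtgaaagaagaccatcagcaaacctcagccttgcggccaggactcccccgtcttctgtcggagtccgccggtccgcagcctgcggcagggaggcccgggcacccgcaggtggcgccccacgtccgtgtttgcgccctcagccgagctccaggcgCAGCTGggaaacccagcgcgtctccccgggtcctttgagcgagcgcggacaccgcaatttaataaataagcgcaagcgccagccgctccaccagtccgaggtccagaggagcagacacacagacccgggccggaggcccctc
NRXN3: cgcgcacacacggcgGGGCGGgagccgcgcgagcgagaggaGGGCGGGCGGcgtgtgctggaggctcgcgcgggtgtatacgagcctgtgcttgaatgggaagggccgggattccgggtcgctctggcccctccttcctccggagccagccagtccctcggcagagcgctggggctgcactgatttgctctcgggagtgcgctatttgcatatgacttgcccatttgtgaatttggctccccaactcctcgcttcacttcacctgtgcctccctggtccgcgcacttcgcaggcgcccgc

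The LRRTM2 window held TGACGTCA 51 bases before the start, ACAAAG 116 bases before it and, on the other strand, TATAAA 102 bases before it. Of the 35116 promoters in the RefSeq table, 1.8% held TGACGTCA, 16.1% ACAAAG and 11.5% TATAAA. The CBLN2 window held CAGCTG 92 bases before the start (17.9% of all promoters), and the NRXN3 window held GGGCGG 3 times (45.0%), with 2 of these matches overlapping. GGAATG was in 14.0% of all promoters. None of the 6 letter strings was in the LRRTM1 or LRRTM3 window, which says only that these letters are not there. The GC content was 67.7% for CBLN2 and 67.0% for NRXN3, and 44.7%, 43.3% and 42.7% for LRRTM1, LRRTM2 and LRRTM3. A letter match is a description of the window. Not all transcripts of a gene start in its window. The LRRTM1 window holds the 5′ end of the most abundant transcript, with a mean of 118 estimated counts, and not that of the next, with 56.1. The CBLN2 window holds the 5′ end of a transcript with 73.3 and not that of the most abundant, with 207. The NRXN3 window holds that of a transcript with 108 and that of a minor one, and not that of the most abundant, with 194. RefSeq windows for NLGN1 were not printed, and none was used for LRRTM4, NRXN2 or CBLN1.

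Of the 9 genes, 7 were called across the 3 substrates at an adjusted p under 0.05, where 19.3% of all tested genes were called. All but LRRTM4 and NLGN1 were among the 7. On VN against Matrigel 6 were higher and 0 lower, where the shares over all genes were 5.66% higher and 9.6% lower. On VNP2 against Matrigel 6 were higher and 0 lower, with 7.44% of all genes called higher and 9.13% lower. Between VNP2 and VN, LRRTM3 and CBLN2 were higher on VNP2 (3.09% of all genes) and NRXN3 was lower (2.01%). The median log2 fold change of the 9 genes was 0.47 on VN and 0.56 on VNP2 against Matrigel and 0.06 between VNP2 and VN, where the medians of all tested genes were 0.0044, 0.0024 and 0.00073. The lowest and highest libraries of the compared groups did not overlap for 7 of the 9 genes on VN against Matrigel, for 8 on VNP2 against Matrigel and for 5 between VNP2 and VN, and the shares over all tested genes were 44.4%, 48.1% and 23.6%. The 2 comparisons with Matrigel share its libraries. The genes were chosen with earlier results of these data known, so these counts beside the shares over all genes are a description.

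**Figure D1:**
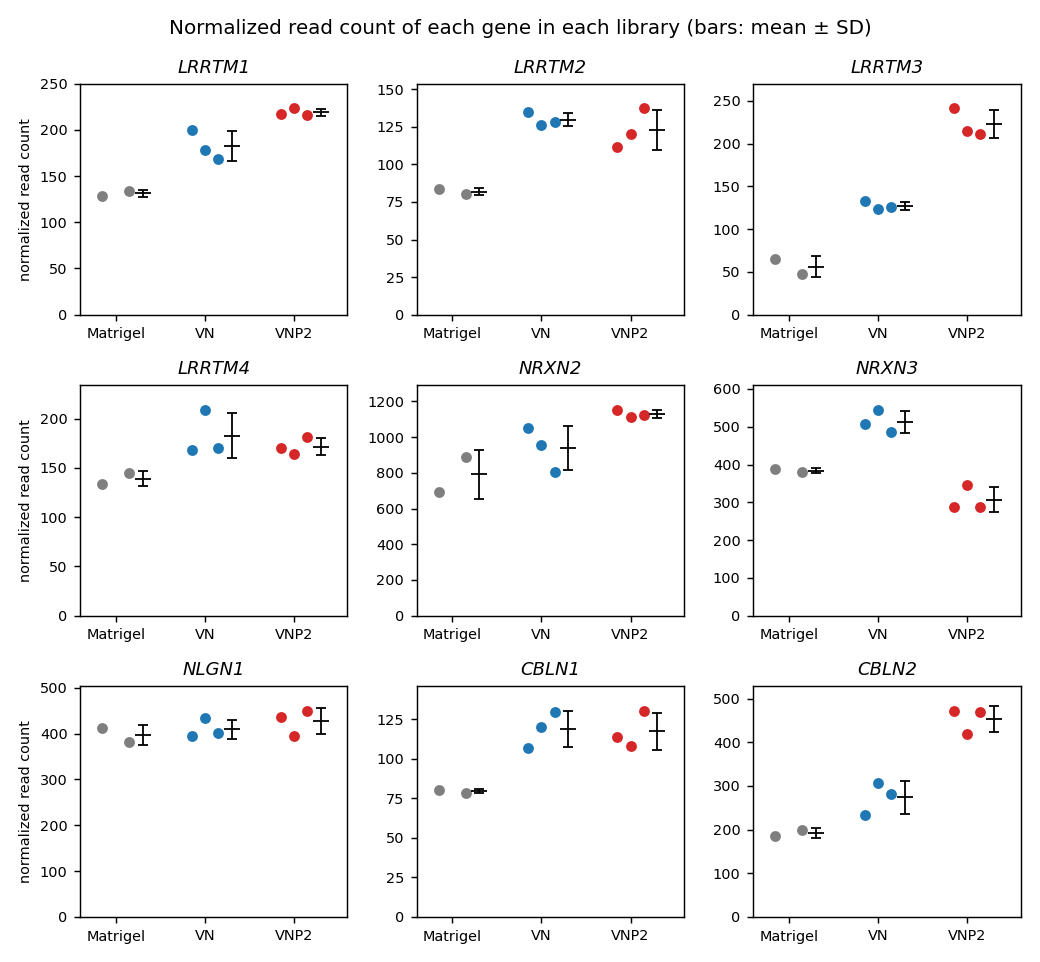
Normalized read count of each of the 9 genes on Matrigel (grey, 2 libraries), VN (blue, 3) and VNP2 (red, 3); each point is a library, the black bar is the mean ± SD, and every axis starts at 0. LRRTM3 climbs from 56.1 on Matrigel through 127 on VN to 223 on VNP2, whereas NRXN3 is highest on VN and the NLGN1 libraries overlap between all substrates.

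The LRRTM genes code for postsynaptic proteins that bind neurexins at excitatory synapses. LRRTM3 changed most among the 9 genes. It lies on chromosome 10 (66926006 to 67099830, GRCh38, plus strand), and all of its abundance came from the transcript that starts inside the window shown above. Its normalized counts were 65.0 and 47.3 on Matrigel, 133, 124 and 126 on VN, as against 241, 215 and 212 on VNP2. The 3 groups did not overlap, in the order Matrigel, VN, VNP2. The log2 fold change against Matrigel was 1.18 on VN (SE 0.163, adjusted p = 0.000874) and 1.99 on VNP2 (SE 0.161, adjusted p = 1.48e-05), which is 2.27-fold and 3.96-fold. Between VNP2 and VN it was 0.80 (SE 0.127, adjusted p = 0.00481), or 1.75-fold. LRRTM3 was called in all 3 comparisons under each of the 15 alternatives that tested it.

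LRRTM1 lies on chromosome 2 (80288351 to 80304749, minus strand). Its normalized counts were 129 and 134 on Matrigel, 200.4, 178 and 169 on VN, then 218, 223 and 216 on VNP2. Again no library of one substrate overlapped another substrate. It was higher by a log2 fold change of 0.47 on VN (SE 0.119, adjusted p = 0.0229) and of 0.74 on VNP2 (SE 0.118, adjusted p = 0.00178) than on Matrigel. The difference of 0.26 between VNP2 and VN did not pass the test (95% interval 0.04 to 0.49, adjusted p = 0.186).

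LRRTM2, on chromosome 5 (138868923 to 138875368, minus strand), had 83.6 and 80.4 normalized counts on Matrigel, 135, 126 and 129 on VN, as against 111, 120.4 and 137 on VNP2. Both Matrigel libraries lay below the 6 others, and VN and VNP2 overlapped. The log2 fold change against Matrigel was 0.66 on VN (SE 0.144, adjusted p = 0.0119) and 0.58 on VNP2 (SE 0.143, adjusted p = 0.0188). Between VNP2 and VN it was -0.08 (95% interval -0.36 to 0.20, adjusted p = 0.787). Without the offset for transcript length neither LRRTM2 call against Matrigel held, at log2 fold changes of 0.28 and 0.34. Its main transcript, with a mean of 109 estimated counts, had 0.783 and 0.759 TPM on Matrigel and 0.732, 0.917 and 1.05 on VN, which overlapped. It had 0.809, 1.19 and 0.956 TPM on VNP2. The remaining TPM of LRRTM2 came from short transcripts with means of 0.331, 1.95 and 3.15 estimated counts.

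LRRTM4, a member of the family that also binds heparan sulfate proteoglycans, lies on chromosome 2 (76747719 to 77593319, minus strand). It had 133 and 145 normalized counts on Matrigel, 168, 209 and 171 on VN, then 169.8, 164 and 181 on VNP2. The Matrigel libraries were the lowest, and VN and VNP2 overlapped. No comparison passed the test, with log2 fold changes against Matrigel of 0.39 on VN (95% interval 0.09 to 0.69, adjusted p = 0.0834) and 0.30 on VNP2 (95% interval -0.0024 to 0.61, adjusted p = 0.176). The 2 differences passed only without the length offset, at 0.59 and 0.45. Transcripts from its main start, with a mean of 162 estimated counts, had 1.62 and 1.83 TPM on Matrigel. They had 2.62, 3.01 and 2.87 on VN, then 2.65, 2.44 and 2.72 on VNP2, so Matrigel overlapped neither. The level of this start alone was not tested.

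Neurexins are the presynaptic partners of the LRRTMs. NRXN2 lies on chromosome 11 (64606174 to 64723188, minus strand) and had 694 and 889 normalized counts on Matrigel, 1051, 956 and 806 on VN, as against 1154, 1112 and 1121 on VNP2. VN overlapped Matrigel, and the VNP2 libraries lay above all others. In estimated counts, before scaling, Matrigel had 768 and 790 and VN 1071, 868 and 904, without overlap. VNP2 had 1093, 1063 and 1212 and overlapped VN. The log2 fold change on VNP2 against Matrigel was 0.52 (SE 0.119, adjusted p = 0.0136). It was 0.25 on VN against Matrigel (95% interval -0.02 to 0.51, adjusted p = 0.195) and 0.27 between VNP2 and VN (95% interval 0.04 to 0.50, adjusted p = 0.186), neither of which passed.

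NRXN3 (chromosome 14, 78170373 to 79868290, plus strand) took another course. Its normalized counts were 388 and 379.9 on Matrigel, 507, 546 and 487 on VN, then 287, 345 and 288 on VNP2. The substrates did not overlap, with VN highest and VNP2 lowest. NRXN3 was higher on VN than on Matrigel by a log2 fold change of 0.42 (SE 0.0993, adjusted p = 0.0182) and lower on VNP2 than on VN, at -0.74 (SE 0.0890, adjusted p = 0.000853), a fold of 0.597. The difference of -0.33 between VNP2 and Matrigel lay just past the threshold (95% interval -0.55 to -0.10, adjusted p = 0.0509) and was called under 3 of 16 alternatives. The fall from VN to VNP2 was called under all 16.

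NLGN1, the neuroligin of excitatory synapses, lies on chromosome 3 (173396284 to 174286644, plus strand). Its normalized counts were 413 and 382 on Matrigel, 396, 434 and 401 on VN, as against 436, 396 and 450.2 on VNP2, so all substrates overlapped. Its log2 fold changes were 0.05 on VN (95% interval -0.15 to 0.24, adjusted p = 0.776) and 0.10 on VNP2 (95% interval -0.09 to 0.30, adjusted p = 0.491) against Matrigel and 0.06 between VNP2 and VN (95% interval -0.12 to 0.23, adjusted p = 0.738).

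The cerebellins are secreted relatives of complement C1q. CBLN2, on chromosome 18 (72536680 to 72638521, minus strand), had 185 and 199.99 normalized counts on Matrigel, 232, 307 and 283 on VN, then 472, 419.8 and 469 on VNP2. The 3 substrates did not overlap and stood in the same order as for LRRTM3. CBLN2 was higher than on Matrigel by a log2 fold change of 0.51 on VN (SE 0.128, adjusted p = 0.0234) and of 1.24 on VNP2 (SE 0.127, adjusted p = 8.07e-05), or 2.36-fold on VNP2. It was also higher on VNP2 than on VN, by 0.73 (SE 0.107, adjusted p = 0.00307).

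CBLN1, best known from the synapses of cerebellar granule cells, lies on chromosome 16 (49277917 to 49281831, minus strand). It had 80.3 and 78.5 normalized counts on Matrigel, 107, 119.7 and 129 on VN, as against 114, 108 and 130.3 on VNP2. Both Matrigel libraries were lowest, and VN and VNP2 overlapped. The log2 fold change against Matrigel was 0.58 on VN (SE 0.156, adjusted p = 0.0312) and 0.56 on VNP2 (SE 0.155, adjusted p = 0.0321), and between VNP2 and VN it was -0.01 (95% interval -0.31 to 0.28, adjusted p = 0.969). Neither CBLN1 call held with DESeq2.

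**Figure D2:**
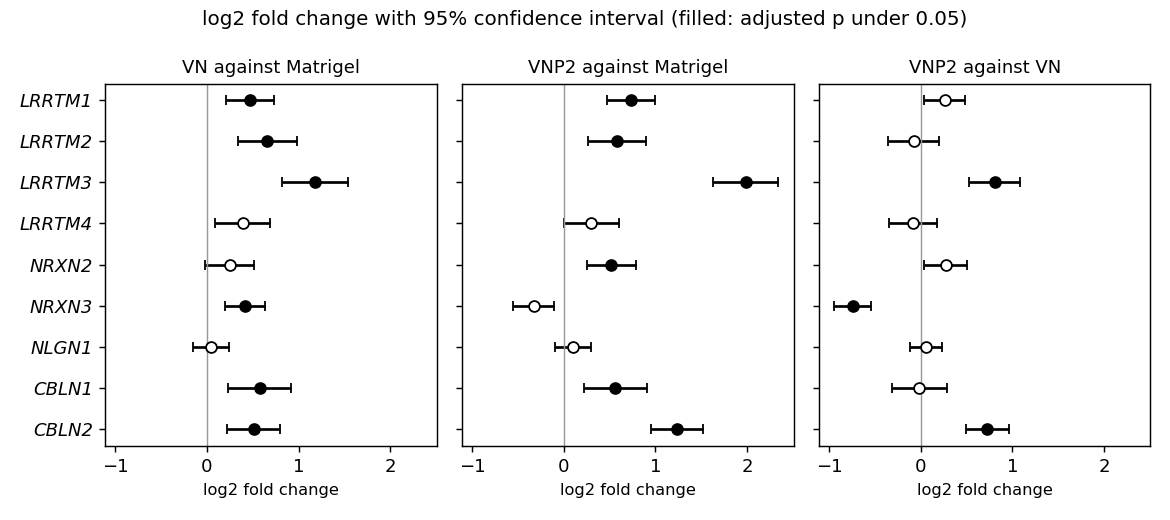
log2 fold change of each gene (points) with its 95% confidence interval (bars) in the 3 comparisons; filled points passed an adjusted p under 0.05. LRRTM3 at 1.99 and CBLN2 at 1.24 are farthest to the right on VNP2 against Matrigel, and NRXN3 at -0.74 is the filled point to the left of 0 between VNP2 and VN.

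Matrigel had 2 libraries, and the calls on VN against it, other than that of LRRTM3, depended on both. Without Matrigel replicate 2, or without replicate 3, 1 of the 9 genes was called on VN against Matrigel, and LRRTM3 was that gene in both cases. The adjusted p of the other 5 genes called there then lay between 0.0653 (LRRTM2, without replicate 2) and 0.153 (CBLN2, without replicate 2), at log2 fold changes of 0.40 to 0.69. On VNP2 against Matrigel 3 were called without Matrigel replicate 2, where NRXN2 stood at 0.35 (adjusted p = 0.144), and LRRTM1, LRRTM3 and CBLN2 held in each alternative that tested them. On VN against Matrigel 3 were called when only the libraries of the pair were fitted, where LRRTM1 (adjusted p = 0.0622), CBLN1 (0.0580) and CBLN2 (0.0547) were lost. Also 3 were called without VN replicate 2, where NRXN3 (adjusted p = 0.0592), CBLN1 (0.0736) and CBLN2 (0.0694) were lost. Without VN replicate 3 the calls of CBLN1 (0.0920) and CBLN2 (0.0653) on VN were lost. On VNP2 the CBLN1 call was lost without VNP2 replicate 1 (0.0603) or replicate 3 (0.102), and the LRRTM2 call without VNP2 replicate 3 (0.0621).

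Levels were compared between genes in TPM, an abundance per transcript length that is scaled to the same total in each library. NRXN2 stood first with a mean of 15.5 TPM (10.6 to 18.5 over the 8 libraries) and did not overlap the next gene. CBLN2 followed with 6.82 (3.75 to 10.04), NLGN1 with 4.76 (4.24 to 5.24), NRXN3 with 4.61 (3.29 to 6.39) and LRRTM1 with 3.65 (2.45 to 4.47). LRRTM4 had 3.36 TPM (2.56 to 4.29), CBLN1 2.43 (1.69 to 2.98), LRRTM3 1.41 (0.439 to 2.33) and LRRTM2 1.13 (0.759 to 1.36). From CBLN2 down, each gene's range overlapped that of the next. Within libraries LRRTM4 was above CBLN1, and CBLN1 above LRRTM3, in 8 of 8, whereas CBLN2 was above NLGN1 in 6 of 8 and LRRTM3 above LRRTM2 in 3 of 8. Those 3 were the VNP2 libraries, in which LRRTM3 had 2.33, 2.08 and 2.06 TPM and LRRTM2 1.09, 1.19 and 1.36. On Matrigel CBLN2, at 3.75 and 4.08 TPM, was below NLGN1, at 4.56 and 4.24.

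The transcript estimates divide the neurexin reads by start site. For NRXN3, transcripts from the internal start, which code for the short beta proteins (coding sequence of up to 1911 bases against 4992 for the longest), held 75.1 to 89.3% of the TPM in the 8 libraries. These short transcripts had 3.71 and 3.61 TPM on Matrigel, 4.62, 5.41 and 5.11 on VN, then 2.58, 2.98 and 2.67 on VNP2, in the same order of substrates as the gene, with no overlap. All transcripts from the 2 starts of the long alpha forms had 0.431 and 0.515 TPM on Matrigel, 1.01, 0.986 and 0.474 on VN, as against 0.578, 0.986 and 0.656 on VNP2. VN overlapped both Matrigel and VNP2. Among these was a retained intron without coding sequence, with a mean of 1.73 estimated counts. It had 0 and 0.194 TPM on Matrigel, 0.508, 0.360 and 0 on VN, then 0, 0.369 and 0 on VNP2. Without it both Matrigel libraries lay below all others, and VN and VNP2 overlapped. The transcripts from these 2 starts rested on a mean of 77.9 estimated counts per library and those from the internal start on 321.

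For NRXN2 the internal start (coding sequence of up to 1998 bases against 5136) held 41.9 to 52.9% of the TPM, and the 2 starts of the long forms 38.5 to 56.4%. The remaining starts rested on a mean of 27.0 estimated counts. They held 0% in Matrigel replicate 2 and 18.0% in replicate 3, and their TPM enters the totals behind these shares. The short NRXN2 transcripts had 4.62 and 5.85 TPM on Matrigel, 7.53, 6.55 and 6.46 on VN, then 8.36, 9.45 and 9.22 on VNP2, so the 3 substrates did not overlap. All transcripts from the 2 starts of the long forms had 5.97 and 5.37 TPM on Matrigel, 7.54, 6.04 and 6.40 on VN, as against 7.11, 6.99 and 7.97 on VNP2, with VN overlapping VNP2. They include transcripts with coding sequences of only 643 and 878 bases. These had 1.22 and 1.17 TPM in Matrigel replicate 2, and 1.99 and 1.33 in VN replicate 1. Among those with coding sequences of 4926 to 5136 bases alone, VN overlapped both Matrigel and VNP2. The share of the internal start was 43.2% on Matrigel, 45.3% with VN and 49.8% with VNP2, a difference that did not pass an exact permutation test over the 560 assignments of libraries (p = 0.157, adjusted p over the 3 genes tested 0.157).

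NLGN1 transcripts began mainly at an upstream start, which held 48.4 to 73.2% of the TPM, or at a downstream start with 19.6 to 33.4%. The most abundant transcript of each start has a coding length of 2469 bases, and both starts also hold shorter ones. The remaining starts held a mean of 15.3% on Matrigel, 6.93% with VN and 3.29% with VNP2, on a mean of 10.2 estimated counts. The mean upstream share was 55.3% on Matrigel, 65.9% with VN and 69.0% with VNP2 (exact permutation p = 0.0714, adjusted p = 0.107). Within it, the most abundant upstream transcript had 1.70 and 2.12 TPM on Matrigel, 2.08, 2.34 and 1.95 on VN, as against 1.77, 1.78 and 1.99 on VNP2, so that all substrates overlapped. A short upstream transcript, with a mean of 9.71 estimated counts, had 0.512 and 0.522 TPM on Matrigel, 1.09, 0.901 and 1.14 on VN, then 1.40, 1.48 and 1.38 on VNP2. For LRRTM4 the main start held 64.6% on Matrigel, 76.7% with VN and 75.4% with VNP2 (exact permutation p = 0.0679, adjusted p = 0.107), and its remaining share came from 2 short transcripts with a mean of 7.09 estimated counts. These tests look at the spread of the 3 group means in either direction, and none passed with all 8 libraries. The exact permutation p was 0.0190 for LRRTM4 without VN replicate 2 and 0.0190 for NLGN1 without VNP2 replicate 1.

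**Figure D3:**
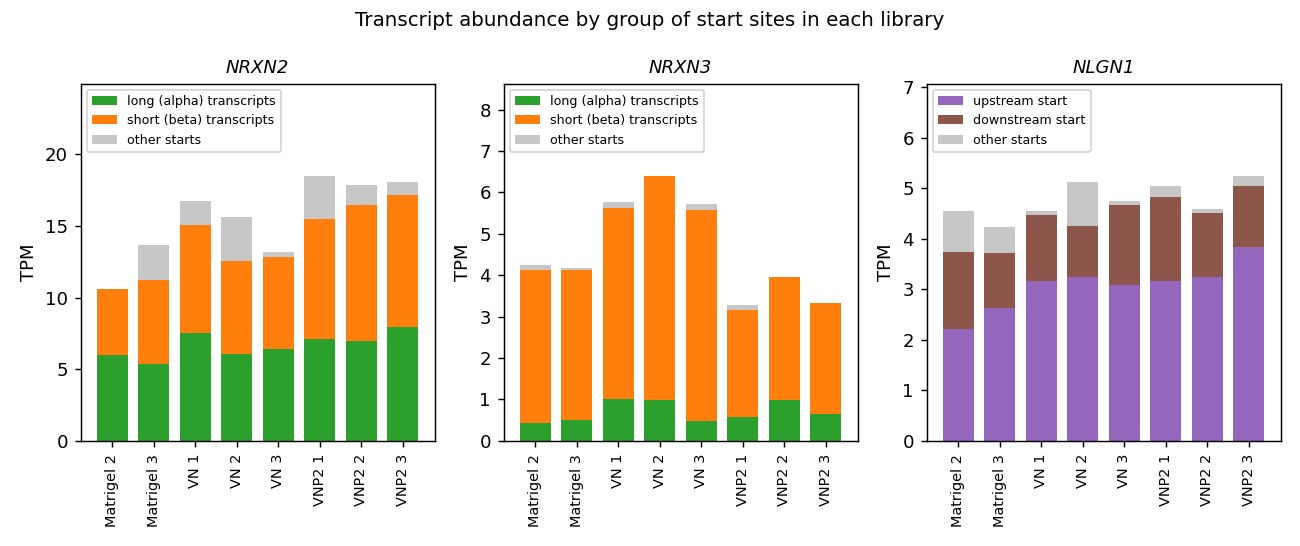
Stacked bars of TPM in each of the 8 libraries for NRXN2, NRXN3 and NLGN1, divided by where transcripts start; axes start at 0 and there are no error bars, since each bar is 1 library. The short NRXN3 transcripts (orange) make up 75.1 to 89.3% of each bar and are highest on VN, while short NRXN2 transcripts are highest on VNP2. Long and short name groups of start sites, and the long group also holds some short transcripts.

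LRRTM1, LRRTM2 and LRRTM3 each lie inside a gene of the alpha-catenin family, on the opposite strand, and alpha-catenins link cadherins to actin. LRRTM1 lies in CTNNA2 and shares none of its exon bases. CTNNA2 had 609 and 663 normalized counts on Matrigel, 809, 823 and 827 on VN, then 942, 974 and 1111 on VNP2, with log2 fold changes of 0.37 on VN (SE 0.0808, adjusted p = 0.0128) and 0.67 on VNP2 (SE 0.0805, adjusted p = 0.000261) against Matrigel and of 0.30 between VNP2 and VN (SE 0.0697, adjusted p = 0.0342). The order of the substrates was thus that of LRRTM1. LRRTM2 lies in CTNNA1 and shares 445 of its 6095 exon bases with it (7.3%). CTNNA1 was lower than on Matrigel, at -0.17 on both VN (SE 0.0292, adjusted p = 0.00347) and VNP2 (SE 0.0292, adjusted p = 0.00293), where LRRTM2 was higher. The libraries were stranded, and whether the quantification used the strand is not given in the sources used here. LRRTM3 lies in CTNNA3, which had 455 estimated counts over all libraries, shares no exon bases with it and passed no comparison (log2 fold change on VNP2 against Matrigel 0.28, SE 0.499, adjusted p = 0.767).

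The other neurexin ligands and the genes listed with them did not move one way. Of 23 tested, 2 were higher and 5 lower on VN against Matrigel, 5 higher and 6 lower on VNP2 against Matrigel, and 2 higher and 2 lower between VNP2 and VN. Their median log2 fold changes were 0.02, 0.12 and 0.03. Over all tested genes 5.66% were higher and 9.6% lower on VN, and 7.44% and 9.13% on VNP2 against Matrigel. Between VNP2 and VN the shares were 3.09% and 2.01%. Of the other cerebellins, CBLN4 was too low to test, with 1 estimated count over all libraries, as was C1QL2 with 7, and CBLN3 was tested but low, with 17.4 to 23.0 normalized counts on Matrigel, 15.5 to 30.3 on VN and 19.3 to 24.4 on VNP2, and passed no comparison. GPC4, a glypican that binds LRRTM4, fell from 26341 on Matrigel to 14008 on VN and 12061 on VNP2, with log2 fold changes of -0.91 (SE 0.0370, adjusted p = 2.04e-07) and -1.13 (SE 0.0370, adjusted p = 4.38e-08), and of -0.22 between VNP2 and VN (SE 0.0338, adjusted p = 0.00455). NXPH1, a neurexophilin that binds alpha neurexins, was higher on VN by 1.02, whereas NXPH2 was lower there, at -0.58. CLSTN2, a calsyntenin, was lower, at -0.63 on VN and -0.72 on VNP2. MDGA2, which binds neuroligins, was higher on VNP2 by 0.89 against Matrigel and 0.53 against VN. C1QL4, a C1q-like protein, was higher on VNP2 than on Matrigel by 0.64 and than on VN by 0.57. ADGRL3, a latrophilin, was lower on VNP2 than on VN, at -0.16.

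A second trans-synaptic system, the LAR phosphatases and their ligands, had 25 tested genes, of which 6 were higher and 4 lower on VN, 7 higher and 4 lower on VNP2 against Matrigel, and 1 higher and 1 lower between VNP2 and VN. The shares over all genes, higher and lower, were 5.66% and 9.6%, 7.44% and 9.13%, and 3.09% and 2.01% in the same order. NTRK3, the neurotrophin-3 receptor, was lower, at -1.58 on VN and -2.05 on VNP2. SLITRK1, a postsynaptic leucine-rich repeat protein, was higher by 0.67 and 0.88, and LRRC4C, the ligand of netrin-G1, by 0.65 and 0.77. NTNG1, which codes for netrin-G1 itself, was lower on VN, at -0.77, and SLITRK4 on VNP2, at -0.74. Between VNP2 and VN the called genes were SLITRK3 at -0.41 and SLITRK2 at 0.30.

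Of the 21 synaptic scaffold genes, 5 were called across the substrates, beside 19.3% of all genes, with 1 higher and 1 lower on VN, 3 higher and 0 lower on VNP2 against Matrigel, and 1 higher and 1 lower between VNP2 and VN. In these 3 comparisons 5.66%, 7.44% and 3.09% of all genes were called higher and 9.6%, 9.13% and 2.01% lower. SHANK2 was higher on VN than on Matrigel by 0.75 and lower on VNP2 than on VN, at -0.65, the same signs as NRXN3, while SHANK3 had -0.32 and 0.32. DLGAP3, DLG2 and DLG4, of the postsynaptic density, were higher on VNP2 than on Matrigel by 0.46, 0.42 and 0.34. Of 5 regulators of neurexin splicing, KHDRBS3 was lower on VN, at -0.18, and higher on VNP2, at 0.23, than on Matrigel, and higher on VNP2 than on VN by 0.41, and PTBP2 was higher on VN by 0.25 and on VNP2 by 0.20.

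**Figure D4:**
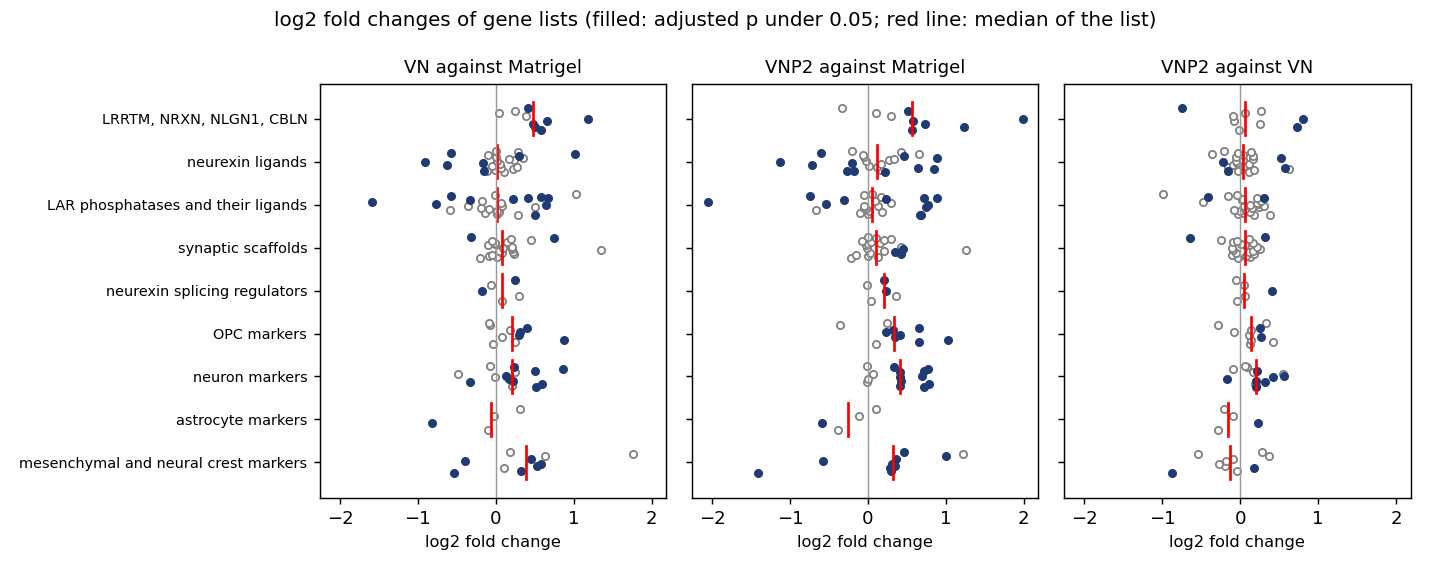
log2 fold changes in the 3 comparisons, with 1 point per tested gene; rows are gene lists, filled points passed an adjusted p under 0.05, and the red line is the median of the list. The median of the 9 genes is 0.47 on VN and 0.56 on VNP2 against Matrigel, while that of the other neurexin ligands is 0.02 and 0.12, with called genes on both sides of 0. Because the 9 genes were chosen with earlier results of these data known, the medians side by side are a description.

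Markers of neurons were mostly higher where they were called. Of 14 tested, 8 were higher and 1 lower on VN, 10 higher and 0 lower on VNP2 against Matrigel, and 6 higher and 1 lower between VNP2 and VN. The shares over all tested genes, higher and lower, were 5.66% and 9.6%, 7.44% and 9.13%, and 3.09% and 2.01%. The summed level of the neuron markers was 1214 to 1254 TPM on Matrigel, 1379 to 1407 on VN and 1504 to 1528 on VNP2. That of the 9 genes was 31.2 to 34.4, 42.3 to 47.0 and 48.8 to 51.0. Both sums stood in the same order of substrates without overlap. So did the sums of the OPC markers, given below, and of the LAR phosphatases and their ligands. The latter were 368 to 369 TPM on Matrigel, 378 to 382 on VN and 385 to 403 on VNP2. The sum of the other neurexin ligands ran in the reverse order, and the other lists kept neither order without overlap. NRXN2, with means of 12.1 TPM on Matrigel, 15.2 on VN and 18.1 on VNP2, was the largest part of the sum of the 9 genes. NRXN3 did not follow that order, and the NLGN1 libraries overlapped between substrates. The synaptic vesicle gene SYN1 and the RNA-binding ELAVL4 were higher by 0.86 and 0.60 on VN and by 0.78 and 0.79 on VNP2, and DCX and STMN2, of young neurons, by 0.52 and 0.50 on VN and by 0.72 each on VNP2. Between VNP2 and VN the neurofilament genes NEFM and NEFL were higher by 0.56 and 0.43, GAP43 by 0.32 and STMN2 by 0.22. The 1 marker called lower on VN against Matrigel, and the 1 between VNP2 and VN, are not among the genes named here. RBFOX3, a marker of mature neurons, had 108 estimated counts over all libraries. All 14 neuron markers were high enough to test.

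OPC markers also rose, 4 of 10 tested on VN and 7 on VNP2 against Matrigel and 2 between VNP2 and VN, with none lower. Over all tested genes 5.66%, 7.44% and 3.09% were called higher in these comparisons. The summed level of the OPC markers was 230 to 233 TPM on Matrigel, 298 to 312 on VN and 326 to 350.4 on VNP2. PTPRZ1, OLIG2 and OLIG1 were higher on VN by 0.39, 0.31 and 0.30, and CSPG4, PTPRZ1, OLIG1 and NKX2-2 on VNP2 by 0.66, 0.65, 0.41 and 0.34. NKX2-2 and PTPRZ1 were each higher on VNP2 than on VN by 0.26. Of 4 tested astrocyte markers, 1 was called, GJA1, at -0.82 on VN and -0.59 on VNP2 against Matrigel and 0.23 between VNP2 and VN, and GFAP (42 estimated counts in all) and AQP4 (27) were too low to test. For lower calls the shares over all tested genes were 9.6%, 9.13% and 2.01%. The summed astrocyte level was 194 to 204 TPM on Matrigel, 117 to 128 on VN and 136 to 146 on VNP2.

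Of 10 tested mesenchymal and neural crest markers, 4 were higher and 2 lower on VN, 7 higher and 2 lower on VNP2 against Matrigel, and 1 higher and 1 lower between VNP2 and VN, with FOXD3 too low to test at 28 estimated counts. Of all tested genes, 5.66% were higher and 9.6% lower, 7.44% and 9.13%, and 3.09% and 2.01% in the same order. The summed level of these markers was 548 to 558 TPM on Matrigel, 631 to 677 on VN and 551 to 587 on VNP2. LUM, DCN and SOX9 were higher on VN by 0.58, 0.53 and 0.45 and COL1A1 lower, at -0.54. On VNP2 COL1A1 was at -1.41, TFAP2A at 0.999, PRRX1 at -0.58 and TWIST1 at 0.47, and between VNP2 and VN COL1A1 was at -0.87 and COL3A1 at 0.17. The part of any of these marker lists in the values of the 9 genes was not tested, and in bulk RNA fewer cells of a type and less RNA per cell cannot be told apart.

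For each of the 7 genes called across the substrates, the 2 genes most like it were found among 12996 tested genes with a mean of at least 100 normalized counts, by Pearson's r of log2 normalized counts over the 8 libraries. The 8 points share 3 substrates, and r is a description. LRRTM1 was most like RUNDC3A and CD200 (r = 0.994 and 0.993), LRRTM3 like VEZF1 and ADCYAP1R1 (0.993 and 0.992), and CBLN2 like DOCK10 and FAM135B (0.992 and 0.989). ADCYAP1R1 had mean normalized counts of 394 on Matrigel, 724 with VN and 1186 with VNP2, where LRRTM3 had 56.1, 127 and 223. VEZF1 moved only from 6479 to 6848 and 7092. LRRTM2 was most like RMND1 and KC6 (0.986 and 0.984), CBLN1 like HEXDC and LPAR2 (0.990 and 0.985) and NRXN2 like PRKDC and RAB11B-AS1 (0.965 and 0.963). NRXN3 was most like ECT2 and UBE2C (0.977 and 0.977), both of which act in cell division, and ECT2 had mean normalized counts of 5362 on Matrigel, 5751 with VN and 5040.5 with VNP2.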

How the data were processed

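Polyadenylated RNA of 8 samples was sequenced from stranded libraries. The authors trimmed reads with Trim Galore and ran Salmon on GENCODE v32 transcripts (GRCh38.p13, per the labels), and deposited estimated counts and TPM per transcript. The authors also deposited a signal, a table of counts per gene normalized in DESeq2 1.27.12, which was used here for a check and 1 alternative.

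Transcripts were matched by identifier to GENCODE v29 (205225 of 226608, with 98.79 to 98.88% of the estimated counts), so reads of transcripts added later are left out. Counts were summed per gene, rounded and fitted with length offsets in edgeR 4.0.16 (R 4.3.3), by the quasi-likelihood test with TMM factors over all 8 libraries and no block. filterByExpr (minimum count 10, minimum total 15) kept 18201 genes. Two-sided p-values were adjusted by Benjamini-Hochberg over every gene tested, and genes were called under 0.05. Normalized counts are counts divided by the size and length offsets.

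Transcripts whose 5′ ends chained within 1000 bases formed a start site (200 as alternative). Shares of TPM were tested by exact permutation for genes with at least 2 starts of at least 10% and at least 100 estimated counts. Promoters came from RefSeq, in Python 3.11.15 with pandas 2.3.3. On simulated data with 200 changed genes among 17968, 185 were called on VN against Matrigel, with 10 unchanged genes. The changed genes were all moved 2-fold up or down and had a mean of at least 50 normalized counts. Smaller changes were not simulated.

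The genes and lists were chosen with earlier results of these data known, and 1 item of a list is not reported here. Named are the 9 genes, up to 4 called genes per list and comparison with the largest change and a mean of at least 100 normalized counts, genes overlapping the 9, and the 2 most like each called gene. CBLN3, OLIG2 levels, SOX10, GPR17, RBFOX3 and the genes too low to test were named after their values were seen. Same-numbered replicates of different substrates did not deviate together (correlations from -0.12 to 0.06), so numbers were not taken as pairs. Alternatives were DESeq2 1.42.0, RLE factors, no length offset, no filter, a minimum of 50 counts per library, only the libraries of a pair, a replicate block, leaving out each library, and limma 3.58.1 on the log2 of the authors' table plus 1.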

Additional observations from a re-analysis of the deposited data

How the results depend on the processing

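No pairing by replicate number was seen in the deviations of same-numbered samples. With a replicate block, 6 of the 9 genes were called across the substrates, 5 on VN and 6 on VNP2 against Matrigel and 3 between VNP2 and VN, and 3992, 3389, 3170 and 1146 of all genes. The call lost on VN was that of LRRTM1 (adjusted p = 0.0503). Fitting only the libraries of the pair left 3 genes called on VN against Matrigel, without LRRTM1, CBLN1 and CBLN2. Leaving out 1 library at a time gave 4 to 7 of the 9 genes across the substrates, 1 to 6 on VN against Matrigel and 3 to 7 on VNP2 against Matrigel. Over all genes it gave 1879 to 4975, 1188 to 3899 and 1609 to 3608 in the same order, and 547 to 1996 between VNP2 and VN, where the highest came without VN replicate 1. The exact p of the start share ranged from 0.0190 to 0.243 for LRRTM4 and from 0.0190 to 0.429 for NLGN1 when 1 library was left out, and the lowest came without VN replicate 2 and without VNP2 replicate 1, respectively. By the authors' normalized counts per kilobase, LRRTM1 took rank 6 and LRRTM4 rank 5 among the 9 levels, the reverse of their TPM order.

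Signs turned only for differences that did not pass a test. Without the length offset NLGN1 was at -0.13 on VNP2 against Matrigel and at -0.15 between VNP2 and VN, and LRRTM2 was at 0.059 between VNP2 and VN. With 1 library left out, NLGN1 on VN against Matrigel ranged from -0.011 to 0.11, LRRTM4 between VNP2 and VN from -0.14 to 0.018 and CBLN1 between VNP2 and VN from -0.097 to 0.049. Of the values of single genes under an alternative, 500 kept direction and side of the threshold, 49 lost their call, 6 gained one and 8 turned sign. Why a call changed was not tested.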
